A study of Mus musculus with 10 samples.

Results

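Target genes of serum response factor (SRF) and of the co-activator YAP that act in adhesion and contraction were followed in single cells during chemical reprogramming of mouse fibroblasts. The 10 genes were picked by name: *Ctgf*, *Cyr61*, *Ankrd1*, *Acta2*, *Tagln*, *Cnn1*, *Cnn2*, *Myl9*, *Tpm1* and *Tpm2*. They are 10 of the 23197 genes in the count table, and the rule used their names, not their levels.

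The study turned mouse embryonic fibroblasts (MEFs) of ICR mice into extraembryonic endoderm-like (XEN-like) cells with the cocktail C6FAE, which joins the GSK3 inhibitor CHIR99021, an inhibitor of the TGF-beta receptor ALK5 (the 6 of the name), the cAMP agonist Forskolin, AM580 and EPZ004777. Cells were picked by hand on days 0, 1, 2, 3, 4, 5, 6, 8, 12 and 20, here called d0 to d20, and d0 stands for the fibroblasts at the start. All cells of later groups had been in the same cocktail, whose 5 compounds cannot be told apart here. By the paper's methods the medium changed with the compounds. MEF medium with serum gave way to a medium with serum, serum replacement and basic fibroblast growth factor. In comparisons with d0, medium and compounds cannot be told apart. No culture without compounds at a later day is among these groups. The groups d8c and d12c are cells from colonies picked on days 8 and 12, and the d6 cells carry the name d6p, whose last letter is not explained. The 10 samples of the series are batches of cells that the cell names do not show. All cells were therefore treated as 1 sample, no test between groups was possible, and every difference below is a description without a replicate check. The unit is counts of unique molecular identifiers (UMIs, tags on single RNA molecules) per 1000000 UMIs of the cell (CPM), averaged over cells with at least 4000 detected genes. Differences between groups are log2 ratios of mean CPM + 1. A gene is called 2-fold higher or lower where this ratio reaches 1 or -1, among genes with at least 5 CPM in either group. Folds and percentages given for single genes are ratios of mean CPM without the added 1, so at low levels they lie further apart than the log2 ratios.

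SRF binds a short sequence called the CArG box and is driven by its partners of the MRTF family, which enter the nucleus when actin monomers are used up in filaments. YAP and its relative TAZ (encoded by *Wwtr1*) have no DNA-binding domain of their own and act through TEAD factors when cells are spread and under tension. Stress fibres of fibroblasts and smooth muscle are built from the actin, tropomyosin, calponin and myosin light chain genes described here, and loss of the fibroblast shape is a known part of reprogramming to epithelial-like cell types.

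Promoters of 5 of the genes that hold letters which SRF or TEAD factors are known to bind are shown. That of *Tpm1* also holds such letters and is not printed. RefSeq promoters on GRCm38.p6, running from 250 bases before to 50 bases after the start, were found for 8 of the 10 genes. *Ctgf* and *Tagln* were not matched. Capitals mark the CArG box (CC and GG around a run of A and T) or the TEAD core GGAATG, on either strand, where CATTCC is its complement. The promoters are chr3:145649936-145650235 for *Cyr61* (minus strand), chr19:36119795-36120094 for *Ankrd1* (minus), chr19:34255324-34255623 for *Acta2* (minus), chr10:79988350-79988649 for *Cnn2* (plus) and chr2:156775214-156775513 for *Myl9* (plus).
Cyr61: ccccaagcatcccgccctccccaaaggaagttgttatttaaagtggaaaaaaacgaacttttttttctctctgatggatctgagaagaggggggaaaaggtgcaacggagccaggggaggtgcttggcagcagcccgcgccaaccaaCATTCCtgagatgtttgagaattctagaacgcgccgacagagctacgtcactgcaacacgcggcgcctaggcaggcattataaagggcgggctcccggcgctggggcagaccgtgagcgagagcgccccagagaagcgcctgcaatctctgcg
Ankrd1: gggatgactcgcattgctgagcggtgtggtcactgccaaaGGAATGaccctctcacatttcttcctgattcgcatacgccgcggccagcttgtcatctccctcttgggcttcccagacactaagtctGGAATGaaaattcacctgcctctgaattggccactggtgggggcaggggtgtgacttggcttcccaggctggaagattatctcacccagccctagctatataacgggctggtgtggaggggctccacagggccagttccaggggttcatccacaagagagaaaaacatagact
Acta2: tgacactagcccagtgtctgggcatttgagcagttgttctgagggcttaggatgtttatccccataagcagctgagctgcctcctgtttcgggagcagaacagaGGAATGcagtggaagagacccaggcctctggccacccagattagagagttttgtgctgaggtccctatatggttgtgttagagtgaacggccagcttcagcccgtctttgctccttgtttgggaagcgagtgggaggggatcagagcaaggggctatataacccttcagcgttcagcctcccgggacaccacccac
Cnn2: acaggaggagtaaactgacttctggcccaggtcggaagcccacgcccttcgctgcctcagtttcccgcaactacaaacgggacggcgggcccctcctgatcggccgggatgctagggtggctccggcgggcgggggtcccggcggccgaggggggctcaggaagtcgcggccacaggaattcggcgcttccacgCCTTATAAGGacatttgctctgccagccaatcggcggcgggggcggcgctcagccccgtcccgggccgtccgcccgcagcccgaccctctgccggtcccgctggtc
Myl9: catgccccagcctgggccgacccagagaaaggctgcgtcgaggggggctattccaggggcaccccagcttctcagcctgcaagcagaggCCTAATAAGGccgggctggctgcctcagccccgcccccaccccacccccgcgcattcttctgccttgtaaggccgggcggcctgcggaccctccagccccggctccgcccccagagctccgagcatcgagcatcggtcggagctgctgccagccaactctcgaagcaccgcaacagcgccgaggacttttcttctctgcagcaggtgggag

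A CArG box with only A and T between CC and GG stood in 2 of the 8 promoters, against 1.63% of all 32851 promoters of this length. It lay 56 bases before the start of *Cnn2* and 161 bases before that of *Myl9*. Stretches with another base in that run were neither counted nor marked. The printed promoters hold some, ccctatatgg and ccttgtttgg in *Acta2* and ccttgtaagg in *Myl9*. GGAATG stood in 4 of the 8, those of *Cyr61*, *Ankrd1*, *Acta2* and *Tpm1*, against 14.7% of all promoters. The promoter of *Ankrd1* held it at 210 and at 123 bases before the start. The AP-1 letters TGANTCA, in which N is any base, stood in none of the 8 and in 7.81% of all. These are matches of letters in a window and say nothing of binding in these cells.

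Of 808 cells, 670 were kept, with 20 to 86 per group and a median depth between 195480 UMIs at d20 and 1055206 at d2. The d0 cells carried the RNA of fibroblast markers (*Col1a1*, *Col1a2*, *Col3a1*, *Thy1*, *Pdgfra*, *Twist2*, *Prrx1*, *Fbn1*), with a mean sum of 3136 CPM at d0, 9556 at d12 and 291 at d20. The sum of 8 XEN markers, *Sox17* and *Gata4* among them, was 66.8 CPM at d0, 166 at d12 and 1504 at d20. A further 8 of 72 d0 cells held at least 20 CPM of *Myod1*, *Myog*, *Ttn* or *Actn2*, which mark skeletal muscle. Levels of the 10 genes at d0 differed little without these cells (3856 against 3668 CPM for *Acta2*). Markers of smooth muscle and pericytes (*Myh11*, *Des*, *Rgs5*, *Cspg4*, *Mcam*, *Notch3*) summed to a mean of 126 CPM at d0, with a median of 57.3 over cells, and to 12.7 CPM at d20. Their part in the results was not tested.

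**Figure D1:**
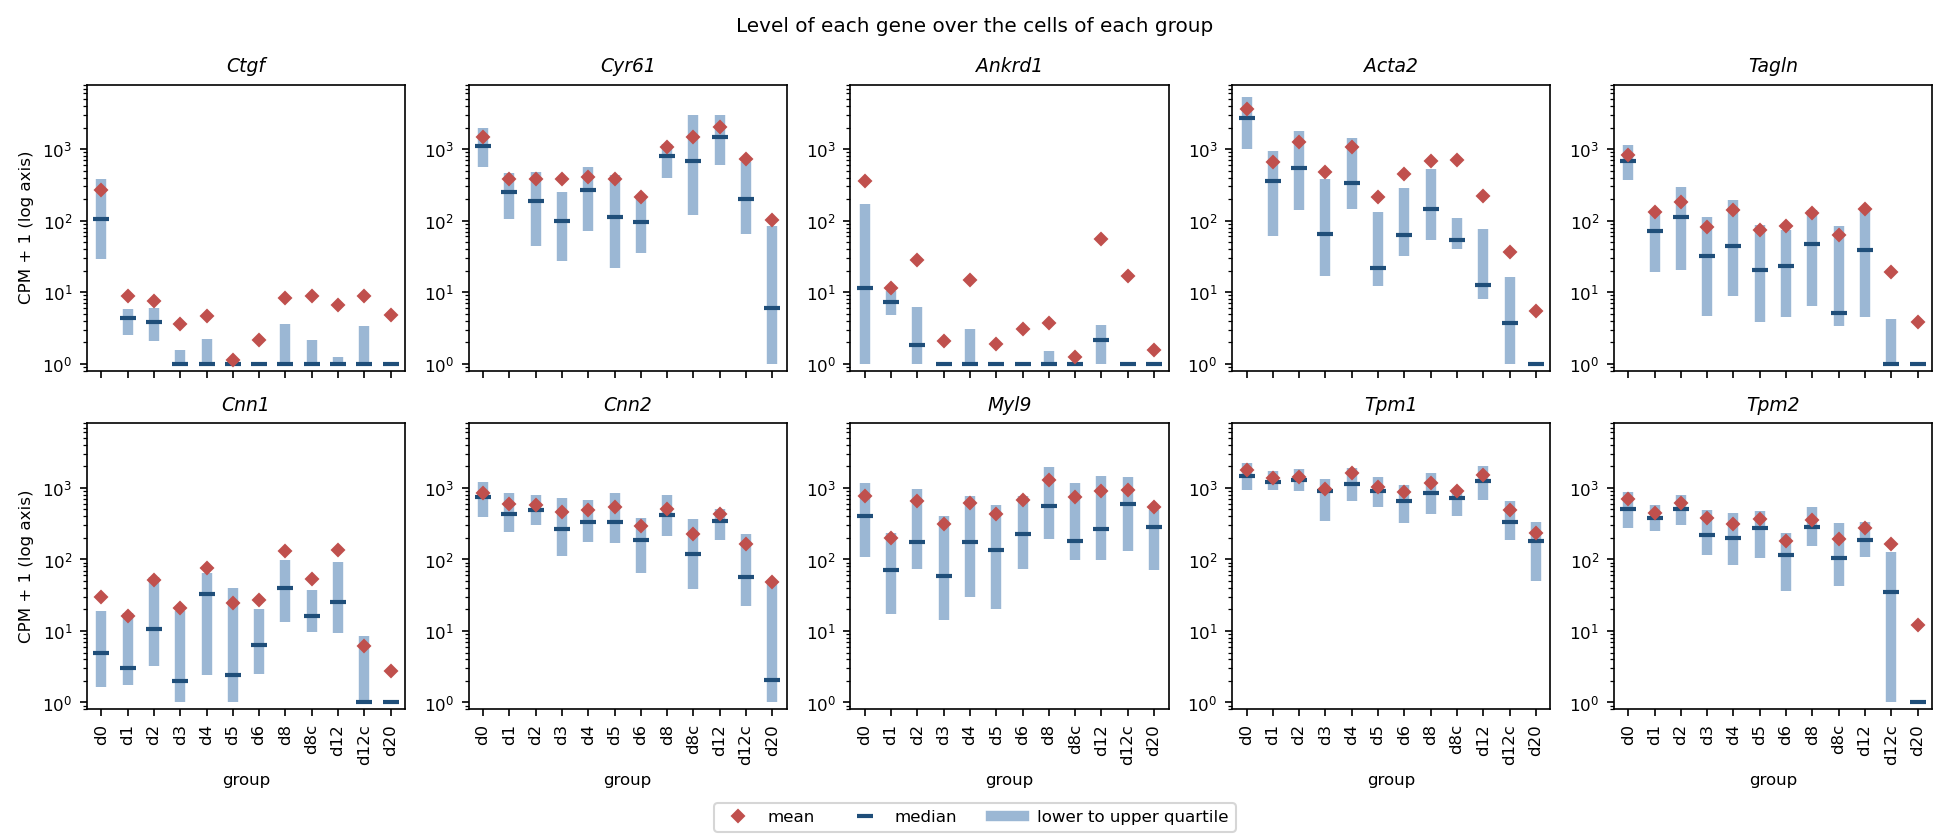
Level of each gene (CPM + 1, log axis) in the cells of each group, with the mean as a diamond, the median as a dash and the quartiles as a bar. *Acta2* goes from a mean of 3668 CPM at d0 to 4.46 at d20, while *Myl9* is at 765 and 535 CPM.

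Summed over the 10 genes, mean RNA was 10701 CPM at d0, 3783 at d1, 5166 at d2, 3090 at d3 and 4733 at d4. It was then 3030 CPM at d5, 2777 at d6, 5364 at d8, 5695 at d12 and 943 at d20. The course had an early drop within the first day and a second drop in the cells that carried XEN markers. Between them, some genes partly returned at d2 and d4 and again at d8 and d12. The genes did not share a single course. *Ctgf*, *Ankrd1*, *Acta2* and *Tagln* stood at 33.7% of d0 or less in every later group. *Cyr61* was above its d0 level only at d12, while *Cnn1* was above its own at d2, d4, d8, d8c and d12. The mean of *Myl9* went from 26.3% of d0 at d1 to above its d0 mean at d8, d12 and d12c.

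**Figure D2:**
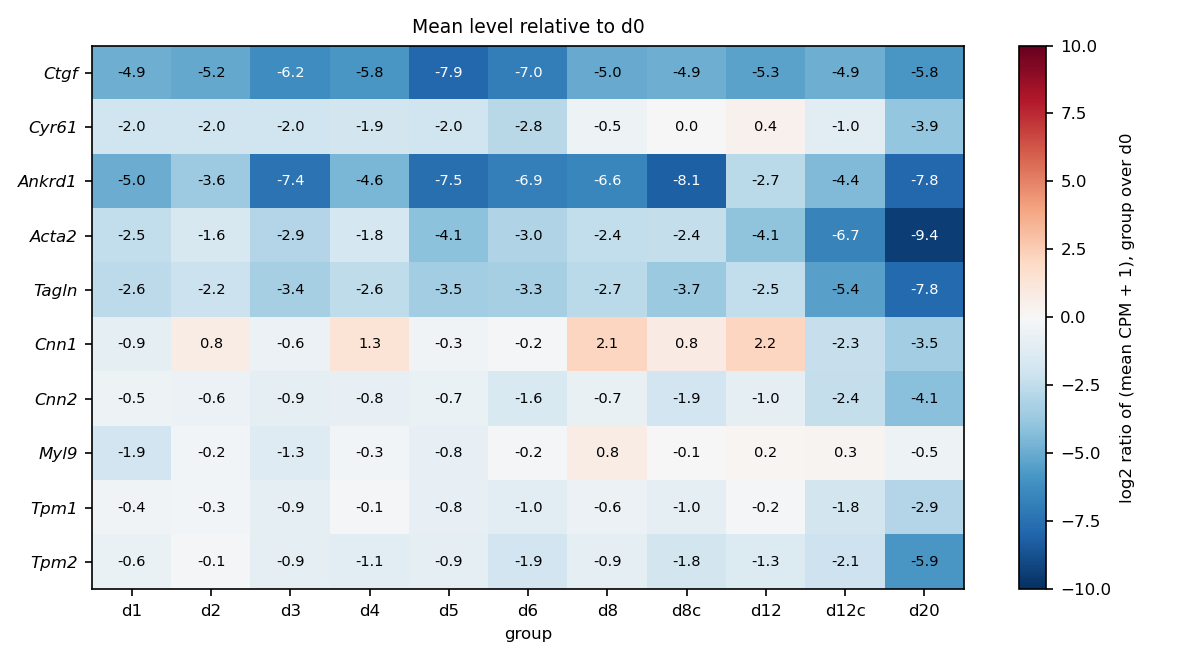
Log2 ratio of mean CPM + 1 of each group over d0 (columns: groups, rows: genes), with blue for lower and red for higher levels. All 10 genes are below d0 at d1, d3, d5, d6 and d20, and *Cnn1* is above d0 at d2, d4, d8, d8c and d12.

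After 1 day in the cocktail, 6 of the 10 genes were at least 2-fold lower than at d0 and none was higher, while 11.7% of the 9514 genes tested were 2-fold lower and 9.75% higher. The median log2 ratio of the 10 genes was -1.95, against 0.02 over all genes. These 6 were the secreted or nuclear YAP targets *Ctgf*, *Cyr61* and *Ankrd1* and the contractile genes *Acta2*, *Tagln* and *Myl9*. The other 4, *Cnn1*, *Cnn2*, *Tpm1* and *Tpm2*, were also lower, with log2 ratios from -0.93 to -0.39. All comparisons with d0 share the same 72 cells. The count of lower genes was 5 at d2 (8.88% of all genes lower, 10.4% higher), 6 at d3 (11.3% and 15.7%), 6 at d4 (10.7% and 15.5%), 5 at d5 (10.2% and 20.4%), 8 at d6 (15.5% and 20.2%) and 4 at d8 (14.9% and 18.6%). The 4 genes *Ctgf*, *Ankrd1*, *Acta2* and *Tagln* were among them each time. *Cyr61* was among them up to d6. Only *Cnn1* was 2-fold higher than d0 in these groups, at d4 and d8.

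From day to day the levels did not go in 1 direction. At d2, 3 genes (*Ankrd1*, *Cnn1*, *Myl9*) were 2-fold higher than at d1 and none was lower (6.65% of all genes higher, 3.29% lower). At d3, 6 genes were lower than at d2 and none was higher (5.29% lower, 6.95% higher), namely *Ctgf*, *Ankrd1*, *Acta2*, *Tagln*, *Cnn1* and *Myl9*. At d4, 4 of 9 genes above 5 CPM (*Ankrd1*, *Acta2*, *Cnn1*, *Myl9*) were higher than at d3 and none was lower (7.3% higher, 6.22% lower). At d5, 3 of 9 (*Ankrd1*, *Acta2*, *Cnn1*) were lower than at d4 and none was higher (5.36% lower, 9.11% higher). *Acta2* alone was higher at d6 than at d5, as 1 of 8 genes (9.09% higher, 12.9% lower). *Acta2*, *Cnn1* and *Myl9* thus stood lower at d1, d3 and d5 than at d2 and d4. The kept cells of d1, d3 and d5 are all numbered up to 48, while those of d2, d4 and d6 also hold higher numbers. In the cells of d2 and d4 numbered up to 48 alone, the means were 1563 and 1435 CPM for *Acta2*, 54.2 and 119 CPM for *Cnn1*, and 848 and 972 CPM for *Myl9*. These too were above the means of d1, d3 and d5. In the cells of d4 numbered above 48, *Acta2* was at 691 CPM, *Cnn1* at 28.5 and *Myl9* at 243, and this last value was below the means of d3 and d5. Between the 2 ranges of d4, 6 of the 10 genes differed by 2-fold or more.

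*Ctgf* (chromosome 10, 24315248 to 24318489, plus strand) encodes a secreted matricellular protein and is among the most used readouts of YAP. Its mean level was 263 CPM at d0, 7.84 at d1, 6.43 at d2, 2.56 at d3, and 3.59 at d4, 0.141 at d5 and 1.14 at d6. Later it was 7.15 CPM at d8, 7.91 at d8c, 5.50 at d12, 7.92 at d12c and 3.74 at d20. The d0 cells stood apart from every other group: their median was 106 CPM, and no later group had a median above 3.35. At d1 the mean was 33.6-fold lower than at d0. Only 5 UMIs were counted in the 36 cells of d5 (exact Poisson interval 1.62 to 11.7), and they came from 5 cells. Single cells made up much of the later means, since that of d12 was 0.719 CPM without its highest cell and that of d8c 1.07.

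*Cyr61* (chromosome 3, 145309935 to 145312949, minus strand) encodes a related secreted protein of the same family as *Ctgf*. Its mean was 1489 CPM at d0, 375 at d1, 375 at d2, 383 at d3, and 406 at d4, 376 at d5 and 214 at d6. It then stood at 1066 CPM at d8, 1473 at d8c, 2008 at d12, 727 at d12c and 102 at d20. The means thus lay between 25.2% and 27.3% of d0 from d1 to d5, while the medians varied more, at 253, 190, 97.1, 266 and 111 CPM. At d3 and d5, 24% and 29.5% of the sum came from 1 cell. The level was back at d12, where 44 of 67 cells held 1000 CPM or more, against 38 of 72 at d0 and 3 of 86 at d6. *Cyr61* and *Ctgf* parted in this way, although both were lower at d1: at d12 *Cyr61* was at 135% of d0 and *Ctgf* at 2.09%. At d20 the median was 4.96 CPM, and 25 of 38 cells had a UMI (65.8%, exact Clopper-Pearson interval 48.6% to 80.4%).

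*Ankrd1* (chromosome 19, 36186455 to 36194334, minus strand) encodes a nuclear and sarcomere-linked ankyrin-repeat protein. Means were 353 CPM at d0, 10.4 at d1, 27.3 at d2, 1.08 at d3, and 13.8 at d4, 0.904 at d5 and 2.04 at d6, and then 2.76 at d8, 0.252 at d8c, 54.8 at d12, 15.7 at d12c and 0.548 at d20. It was uneven from cell to cell, because the d0 cells ranged from 0 to 9156 CPM with a median of 10.5. The d0 mean was 229 CPM without the highest cell, and within d0 it was 526 CPM in cells numbered up to 48 and 96.6 in those numbered above. The median of d1, 6.38 CPM, was close to that of d0, so the difference of the means rests on the cells with high levels. At d20 all 9 UMIs came from 1 of 38 cells.

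*Acta2* (chromosome 19, 34315580 to 34329826, minus strand) encodes smooth muscle alpha-actin, the actin of myofibroblast stress fibres. Its mean was 3668 CPM at d0, 655 at d1, 1237 at d2, 476 at d3, and 1077 at d4, 213 at d5 and 445 at d6, followed by 676 at d8, 698 at d8c, 219 at d12, 35.4 at d12c and 4.46 at d20. Every d0 cell held its RNA, with a lowest cell at 66.5, a median at 2727 and a highest cell at 17073 CPM. The medians went down further than the means, to 11.5 CPM at d12 and 0 at d20, because a few cells kept high levels: 6 of 67 cells at d12 still held 1000 CPM or more. At d20 only 9 of 38 cells had a UMI (23.7%, exact interval 11.4% to 40.2%), and the mean was 823-fold below d0. After thinning of every cell to 50000 UMIs, 8.33% of the d20 cells had a UMI, against 100% at d0. Counts of actins are uncertain where reads lie in coding sequence shared with *Acta1*, *Actc1*, *Actg2* and *Actb*, since how the counting treated such reads is not given.

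*Tagln* (chromosome 9, 45737711 to 45744141, minus strand) encodes transgelin, an actin-bundling protein of smooth muscle. Its means were 819 CPM at d0, 131 at d1, 180 at d2, 79.4 at d3, and 138 at d4, 72.2 at d5 and 82.9 at d6, then 126 at d8, 61.7 at d8c, 146 at d12, 17.9 at d12c and 2.79 at d20. It moved much like *Acta2* up to d8, but at d12 the median of *Tagln* was at 38.2 CPM, close to the 45.8 of d8, while that of *Acta2* went from 145 to 11.5. At d20 2 of 38 cells had a UMI, and 1 of them made up 98.3% of the sum, so that the mean without it was 0.0474 CPM.

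*Cnn1* (chromosome 9, 21903725 to 21914074, plus strand), calponin of differentiated smooth muscle, was above its d0 mean in some groups of the middle of the course and below it in others. Its mean was 29.3 CPM at d0, 14.97 at d1, 51.1 at d2, 19.7 at d3, and 75.4 at d4, 23.3 at d5 and 26.1 at d6, and 131 at d8, 52.4 at d8c, 135 at d12, 5.21 at d12c and 1.73 at d20. *Cnn1* was the gene among the 10 that was 2-fold above d0 at d4 (15.5% of all genes were higher there), at d8 (18.6%) and at d12 (19.3%). The difference was not limited to a few cells, as the median was 3.91 CPM at d0, 38.8 at d8 and 24.6 at d12, and 98.5% of d12 cells had a UMI (exact interval 91.96% to 99.96%) against 75% at d0 (63.4% to 84.5%). Thinned to equal depth, the shares were 69.7% and 36.6%. At d4 the mean was 119 CPM in cells numbered up to 48 and 28.5 in those numbered above, so the d4 value depends on the range.

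**Figure D3:**
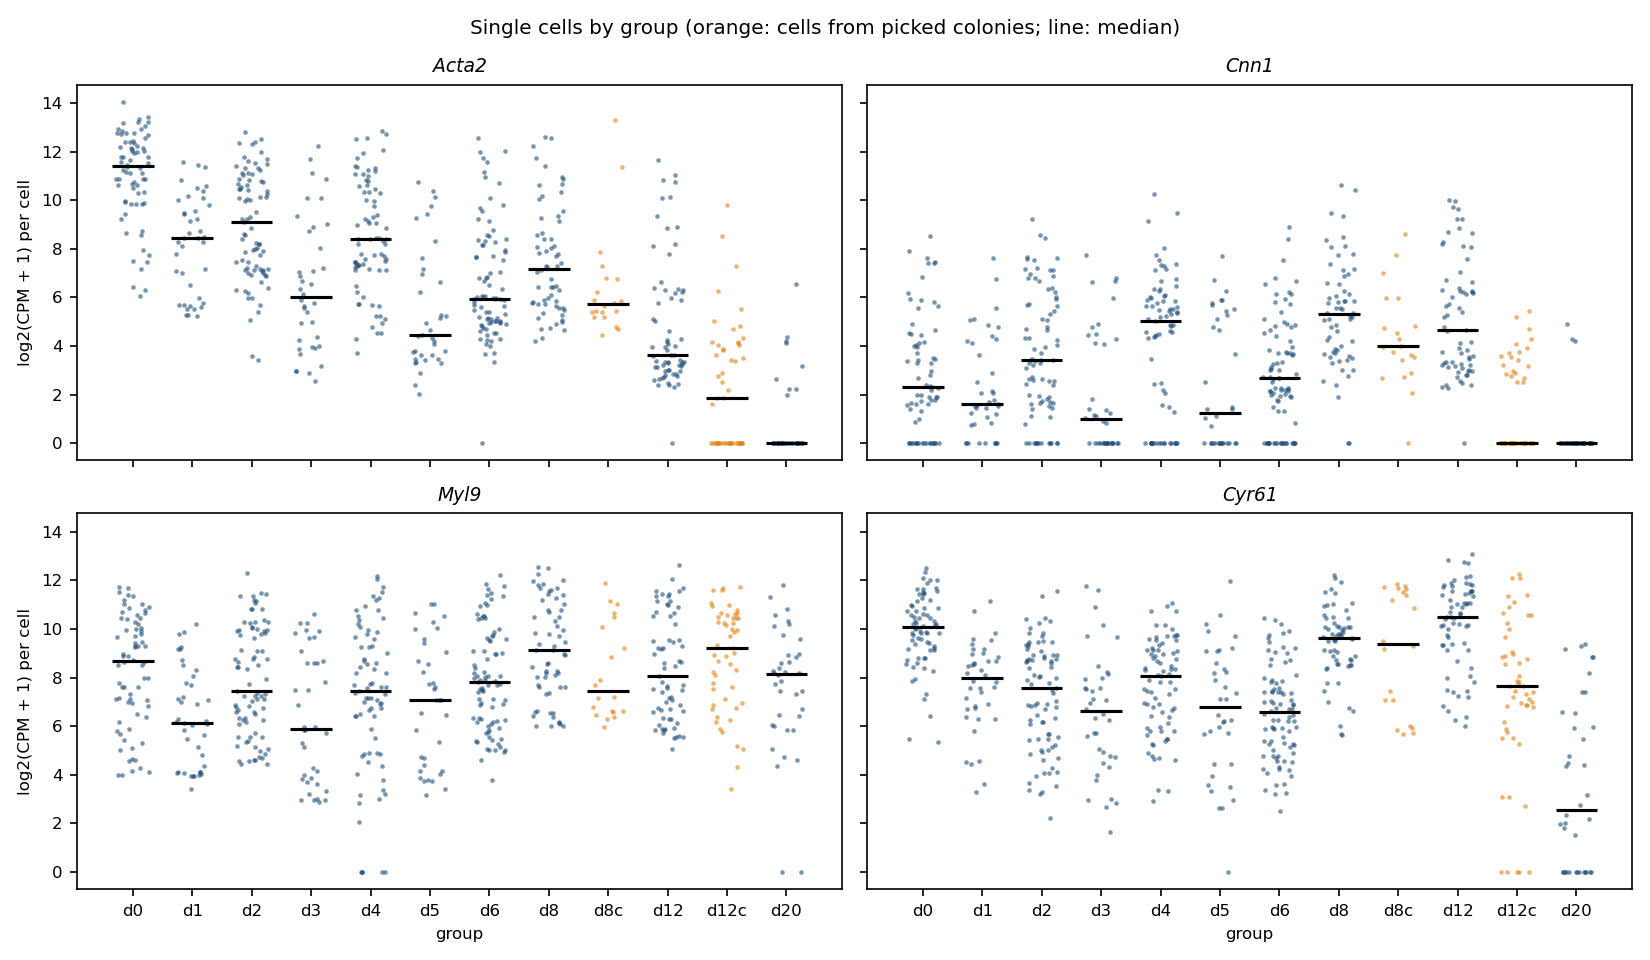
Log2(CPM + 1) in each cell for *Acta2*, *Cnn1*, *Myl9* and *Cyr61* by group, with the median as a line and colony cells in orange. The *Acta2* median goes from 2727 CPM at d0 to 0 at d20, and *Cnn1* has its highest medians at d4, d8 and d12.

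*Cnn2* (chromosome 10, 79451329 to 79458807, plus strand) encodes a calponin found in many cell types beyond muscle. It was at 852 CPM at d0, 587 at d1, 575 at d2, 466 at d3, and 487 at d4, 542 at d5, 290 at d6, 512 at d8, 226 at d8c, 428 at d12, 162 at d12c and 47.3 at d20. Between d1 and d5 it stayed between 54.7% and 68.9% of d0, without the early loss of *Acta2* and *Tagln*. At d20 it was 18.0-fold lower, and 19 of 38 cells had a UMI.

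*Tpm1* (chromosome 9, 66870397 to 66897213, minus strand) and *Tpm2* (chromosome 4, 43527583 to 43536637, minus strand) encode tropomyosins, which wind along actin filaments. *Tpm1* means were 1773 CPM at d0, 1357 at d1, 1444 at d2, 975 at d3, and 1600 at d4, 1016 at d5, 865 at d6, 1185 at d8, 894 at d8c, 1528 at d12, 497 at d12c and 234 at d20. *Tpm2* means were 689 CPM at d0, 444 at d1, 622 at d2, 378 at d3, and 311 at d4, 361 at d5, 180 at d6, 359 at d8, 192 at d8c, 272 at d12, 164 at d12c and 10.9 at d20. Both were less than 2-fold below d0 up to d3, and they differed at the end. *Tpm1* had a UMI in 37 of 38 d20 cells at 13.2% of its d0 mean, whereas *Tpm2* had one in 8 of 38 at 1.59%.

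*Myl9* (chromosome 2, 156601156 to 156607394, plus strand) encodes the regulatory light chain of non-muscle and smooth muscle myosin, whose phosphorylation starts contraction. Its mean was 765 CPM at d0, 201 at d1, 648 at d2, 310 at d3, and 622 at d4, 424 at d5 and 670 at d6. It was 1299 CPM at d8, 736 at d8c, 898 at d12, 930 at d12c and 535 at d20. After the low of d1 the gene was thus at 40.5% to 170% of d0 in every group, and it was the only one of the 10 that was less than 2-fold below d0 at d20. There 36 of 38 cells had a UMI, from 0 to 3628 CPM with a median of 284, against a d0 median of 410.

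Between d6 and d8, 3 genes were 2-fold higher and none lower, against 7.37% of all genes higher and 9.07% lower. They were *Cyr61* at 4.97-fold, *Cnn1* at 5.01-fold and *Ctgf* at 6.29-fold, the last between 2 low levels. All 10 log2 ratios were above 0, and those of *Tpm2* (0.99) and *Myl9* (0.95) were close to the 2-fold line. Over these days the sum of the 10 genes went from 2777 to 5364 CPM. The count of higher genes was 5 or 6 under 7 of the alternatives tried, and with all 808 cells *Ctgf* was lower at d8 than at d6.

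Between d8 and d12, *Acta2* was 2-fold lower and *Ankrd1* higher (17.5% of all genes lower, 14.6% higher), and the *Ankrd1* mean of d12 was 26.2 CPM without its highest cell. Against d0, 5 of the genes were 2-fold lower at d12 (*Ctgf*, *Ankrd1*, *Acta2*, *Tagln*, *Tpm2*) and 1, *Cnn1*, was higher, against 19.3% of all genes in each direction. As a share of their UMIs, the d12 cells held more fibroblast marker RNA than the d0 cells, as given above. *Cnn2* lay at the line with a log2 ratio of -0.99. *Tpm1* (-0.21), *Myl9* (0.23) and *Cyr61* (0.43) were closer to d0. Scaled to the ERCC spike-in RNAs in place of the UMIs of the cell, 9 genes were lower at d12 and none was higher, with 83.3% of all genes lower and 4.39% higher.

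The d12c cells as a whole were 2-fold lower than d12 in 7 genes and higher in none (15.6% of all genes lower, 17.6% higher), and lower than d0 in 9 genes, all but *Myl9* (15.6% lower, 18.8% higher). They fell into ranges of cell numbers that differed in these genes. Of the 51 kept cells, 21 were numbered 1 to 24 and 30 were numbered 49 to 96. XEN markers summed to a mean of 424 CPM in the first range and 1185 in the second, and fibroblast markers to 4303 and 222 CPM. Whether the ranges are separate colonies or libraries is not given, so range and cell state cannot be told apart. Against d12, 8 of the 10 genes were 2-fold lower in cells 49 to 96 and none was higher (25% of all genes lower, 23.8% higher), with a median log2 ratio of -3.09 against 0.09 over all genes. In cells 1 to 24, 3 genes were lower than at d12 and none was higher (11.7% lower, 11.1% higher).

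**Figure D4:**
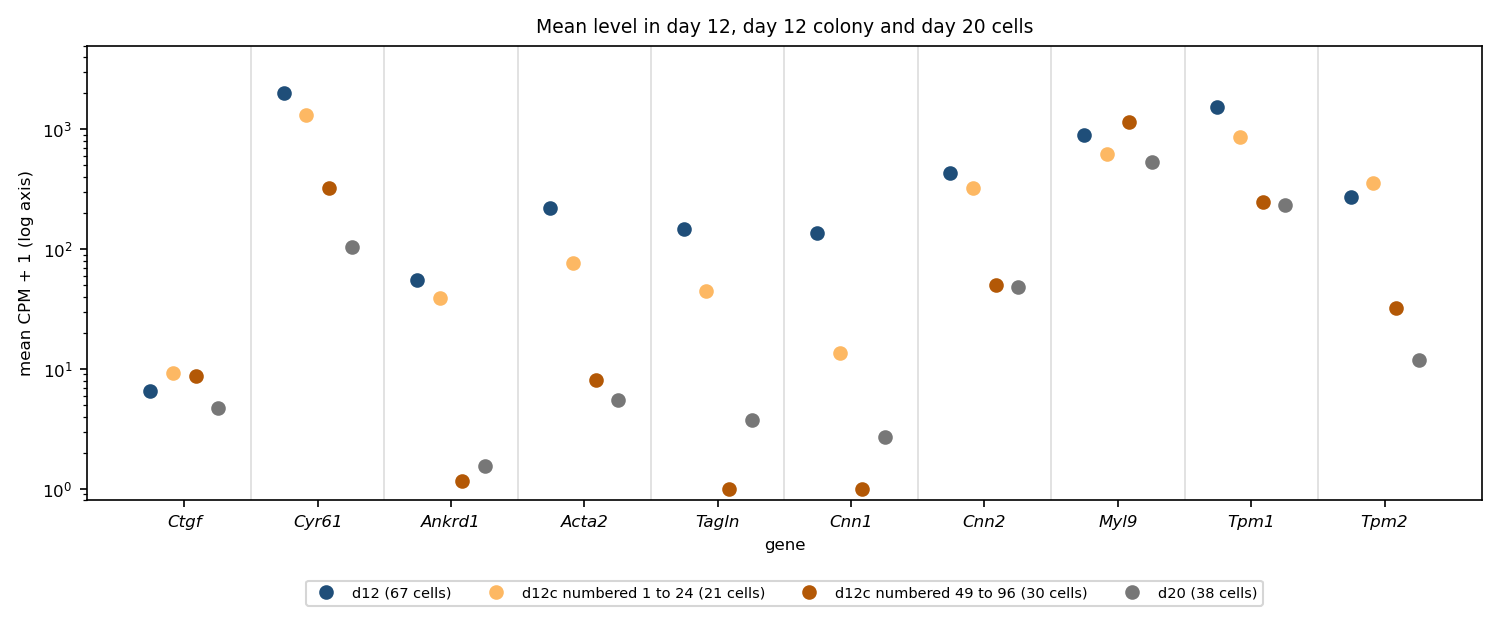
Mean CPM + 1 (log axis) of each gene at d12, in d12c cells numbered 1 to 24, in d12c cells numbered 49 to 96 and at d20. *Tagln* and *Cnn1* have no UMI in the 30 cells numbered 49 to 96, and *Myl9* has its highest value of the 4 groups there.

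*Tagln*, *Cnn1* and *Ankrd1* were at or near 0 in cells 49 to 96, and *Acta2* was low in both ranges. *Acta2* had a mean of 76.0 CPM in cells 1 to 24 and 7.06 in cells 49 to 96. The first value was 18.3 without 2 cells that held skeletal muscle markers, and the second was 1.85 without its highest cell. *Tagln* had 43.5 CPM in the first range and no UMI in the second, which is at least 291-fold below d12 if 3 counts over the group are allowed. *Cnn1* likewise had 12.7 CPM and no UMI, at least 320-fold below d12, and 0 of 30 cells allow a share of up to 10% with a UMI. *Ankrd1* had 250 UMIs in the first range and 1 in the second, for a log2 ratio of summed UMIs to d12 of -8.67 (exact counting interval -13.97 to -6.19).

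The YAP target *Cyr61* was at 1308 and 321 CPM, *Cnn2* at 324 and 49.3, and *Tpm1* at 854 and 247 CPM in the 2 ranges. *Tpm2* was at 354 and 31.2 CPM, and the first value was 124 without the 2 cells with skeletal muscle markers. *Ctgf* had means of 8.20 and 7.72 CPM, but 91.0% of the first came from 1 cell. Without the highest cell of each range the means were 0.778 and 6.04 CPM, and at equal depth 4.76% and 30.8% of cells had a UMI. *Myl9* had the reverse order, at 623 CPM in cells 1 to 24 and 1144 in cells 49 to 96, and the medians were 197 and 1215 CPM against 266 at d12. Over the 51 cells *Myl9* had a Spearman correlation of 0.58 with the XEN marker sum and -0.35 with the fibroblast marker sum, while those of *Tagln* were -0.64 and 0.80. The cells differ in depth, with medians of 416789 and 276240 UMIs in the 2 ranges.

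For colony cells of day 8 the median log2 ratio of the 10 genes to d8 was -0.86. For all d12c cells against d12 it was -1.54, and for those numbered 1 to 24 it was -0.57. In 20 cells of d8c, 3 of 9 genes above 5 CPM were 2-fold lower than at d8 and none was higher, against 15.9% of all genes lower and 14.3% higher. They were *Tagln*, *Cnn1* and *Cnn2*. Against d0, 6 of 10 were lower and none was higher (16.9% lower, 19.9% higher). *Acta2* had a mean of 698 CPM, but its median was 52.0, and without the highest cell, at 10072 CPM, the mean was 205.

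At d20, 9 of the 10 genes were 2-fold lower than at d0 and none was higher, against 19.1% of all genes lower and 23.2% higher. The median log2 ratio was -4.97, against 0.19 over all genes. Scaled by TMM factors, 22.8% of all genes were lower and 18.4% higher, and with these factors 9 of the 10 genes were lower too. Ratios ran from -9.39 for *Acta2* and -7.76 for *Tagln* to -2.92 for *Tpm1* and -0.52 for *Myl9*. Against d12, 8 genes were 2-fold lower (22.9% of all genes lower, 30.8% higher; 28.6% and 22.3% with TMM factors), with *Cnn1* 78.3-fold, *Tagln* 52.5-fold and *Acta2* 49.2-fold lower. *Ctgf* (-0.46) and *Myl9* (-0.75) were the exceptions. The folds of *Cnn1*, *Tagln* and *Acta2* rest on 25, 46 and 56 UMIs at d20, and their order may depend on the added 1. Against d12c cells numbered 49 to 96, only 3 of 7 genes above 5 CPM were lower at d20 (11% of all genes lower, 18% higher), namely *Cyr61*, *Myl9* and *Tpm2*. A d20 cell held UMIs of a median of 3.5 of the 10 genes, against 10 at d0 and 9 at d12. At equal depth these medians were 3, 9 and 7.

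CPM are shares of the RNA of a cell. Per UMI of the ERCC spike-ins, the cells held 31.9 UMIs of genes at d0, 36.6 at d1, 7.80 at d12 and 4.56 at d20. On that scale *Cyr61* at d12 was at 28.2% of d0, *Cnn1* at d12 at 94.4% and *Myl9* at d20 at 8.46%. These values take UMIs summed over the cells of a group, so the average differs from that of the mean CPM as well as the scale. At d1, *Ctgf* was at 4.59%, *Acta2* at 23.0% and *Tpm1* at 74.7% of d0, close to the values in CPM. Less RNA per cell and more added spike-in cannot be told apart here.

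Paralogs of the genes, both muscle forms and forms that serve many cell types, were also followed. Of 12 paralogs above 5 CPM, 4 were 2-fold lower at d1 than at d0 (11.7% of all genes lower, 9.75% higher), 6 at d12 (19.3% and 19.3%) and 9 at d20 (19.1% and 23.2%), and none was higher. The 4 at d1 were the muscle actins *Acta1*, *Actc1* and *Actg2* and the myosin light chain gene *Myl12a*. The d0 means of *Acta1* and *Actc1* rest mostly on the highest cell, with 184 and 224 CPM over all cells and 3.80 and 6.97 without it. Without the 8 cells with skeletal muscle markers they were 3.84 and 4.66 CPM. These 2 genes are also among the 6 at d12 and the 9 at d20. *Actb*, the cytoplasmic beta-actin, was at 10657 CPM at d0, 4835 at d12 and 1441 at d20. *Tpm4* was at 1100, 983 and 109 CPM, and was 2-fold lower than d0 at d20 but not at d1 or d12. *Tagln2* did not share the early drop of *Tagln*, with 530 CPM at d0, 913 at d1 and 722 at d12, and was at 212 at d20. The 3 that were not 2-fold lower at d20 were *Cnn3* (798 and 584 CPM at d0 and d20), *Tpm3* (845 and 436) and the myosin light chain gene *Myl12b* (164 and 179). *Actg2*, an actin of visceral smooth muscle, was at 170 CPM at d0 and had no UMI at d20, at least 473-fold lower.

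Pathway genes were taken from lists drawn up beside the 10 genes. Of 26 further SRF and MRTF pathway genes above 5 CPM, 6 were 2-fold lower and 2 higher at d1, 6 lower and 4 higher at d12, and 19 lower and 1 higher at d20 (median log2 ratio -2.03). Over all genes the shares lower and higher were 11.7% and 9.75% at d1, 19.3% and 19.3% at d12, and 19.1% and 23.2% at d20, so that the counts of this list at d12 lay near the background. At d1, *Mylk*, the kinase of the myosin light chain, had a mean of 11.6 CPM against 197 at d0. Its medians were only 1.26 and 4.31 CPM, and its mean was 436 CPM at d8 and 217 at d12. The immediate early genes *Fos* (206 against 57.9 CPM) and *Egr1* (77.5 against 37.7) were higher at d1 than at d0. *Csrp2*, a LIM protein of smooth muscle, was higher at d12 and d20, at 222 and 225 CPM against 59.0. The factors themselves were low throughout. *Srf* was at 10.5 CPM at d0, 21.0 at d1, 12.2 at d12 and 5.93 at d20, and its medians at d0 and d1 were 0.886 and 16.2 CPM. In the same groups *Mkl2*, which encodes MRTF-B, was at 28.7, 13.7, 9.43 and 13.01 CPM. *Mkl1*, also of the MRTF family, was at 6.47, 6.12, 3.56 and 3.04 CPM.

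Of 37 YAP and TEAD pathway genes, 16 were lower and 2 higher at d1, 11 lower and 5 higher at d12, and 19 lower and 5 higher at d20 (median log2 ratio -1.01). Shares lower and higher over all genes were 11.7% and 9.75% at d1, 19.3% and 19.3% at d12, and 19.1% and 23.2% at d20. Counts of 5 higher genes are small, and no difference from these shares is read from them. *Thbs1*, a matricellular protein and YAP target, was at 596 CPM at d0, 53.2 at d1, 1073 at d12 and 3.07 at d20. *Axl*, a receptor kinase, was at 129 CPM at d0, 20.2 at d1 and 1.07 at d20. *Amotl2* and *Lats2*, which hold YAP back and are also its targets, were at 97.0 and 49.4 CPM at d0 and at 9.12 and 8.43 at d1. Against these stood *Tgfb2*, a ligand, at 50.1, 497 and 211 CPM at d0, d12 and d20, and tissue factor *F3*, at 194 CPM at d0, 32.7 at d1 and 822 at d20. *Yap1* was at 17.8 CPM at d0, 36.3 at d3 and 10.3 at d20, *Wwtr1* at 39.8, 30.3 and 21.1, and *Tead1* at 61.3, 76.4 and 22.6 CPM. None of the 3 was 2-fold lower at d1.

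The 10 genes were compared with each other over the 12 groups and from cell to cell, as descriptions without a test, since the cells come from a single table without replicates and differ in depth. Over the means of log2(CPM + 1) in 12 groups, Pearson's r of the 45 pairs had a median of 0.60 and ran from -0.16 to 0.99, and 38 were above 0. *Cnn2* with *Tpm2* (0.99), *Tpm1* with *Tpm2* (0.97) and *Acta2* with *Tagln* (0.95) were closest. *Myl9* had an r of 0.06 with the mean of the other 9 genes, against 0.56 for *Ctgf*, 0.59 for *Cnn1* and up to 0.92 for *Tagln*.

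**Figure D5:**
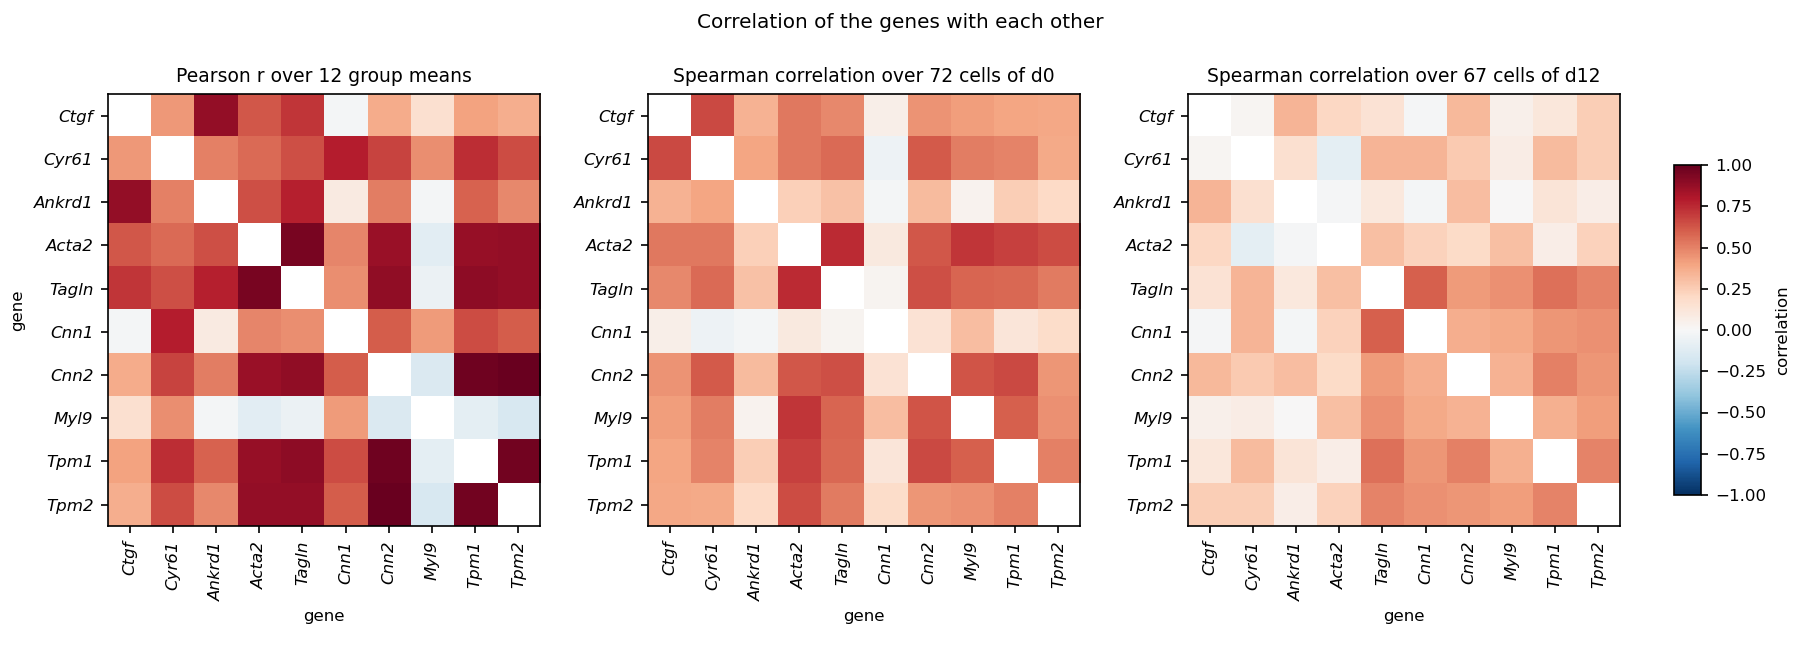
Correlation of each pair of genes over 12 group means (Pearson's r), over 72 cells of d0 and over 67 cells of d12 (Spearman's correlation), on a scale from -1 to 1. *Myl9* with *Acta2* has an r of -0.10 over the groups and a Spearman correlation of 0.71 within d0.

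Within the d0 cells the median Spearman correlation of the 45 pairs was 0.45, and at equal depth it was 0.46. *Acta2* had a correlation of 0.75 with *Tagln* and 0.71 with *Myl9*, and *Ctgf* had 0.66 with *Cyr61*. *Myl9* thus went with the contractile genes among fibroblasts, though not across the course. At d12 the median correlation was 0.30 (0.25 at equal depth), the pair *Tagln* and *Cnn1* led with 0.59, and *Acta2* with *Cyr61* had -0.10. At d20 few cells hold these genes, and the median of 0.23 is weak.

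Among the 8102 other genes that reached 20 CPM in some group, those with a profile over the 12 groups most like the mean of the 10 were *Bdnf*, *Ly6a*, *Tnk2*, *Ahnak* and *Axl*, each with an r of 0.92, against a median of 0.14 over all. By gene, the nearest were *Prelp* for *Ctgf* (0.97), *Thbs1* for *Cyr61* (0.93), *Plscr2* for *Ankrd1* (0.97), *Herpud1* for *Acta2* (0.99), *Myl6* for *Tagln* (0.98), *Oaz1* for *Cnn1* (0.95), *Tpm4* for *Cnn2* (0.98), *Cck* for *Myl9* (0.91), *Anxa2* for *Tpm1* (0.98) and *Anxa1* for *Tpm2* (0.98). *Cck*, a peptide hormone gene, was at 136 CPM at d0, 0.363 at d1, 173 at d12 and 146 at d20.

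*Sox17*, an early XEN gene, was at 20 CPM or more in 22 cells of d3 to d8c and had no UMI in 207. In these 22 cells *Myl9* had a mean of 1045 CPM, against 690 in cells without *Sox17* weighted to the same groups, and *Acta2* 781 against 662. *Cyr61* was at 465 against 671 CPM and *Tagln* at 73.2 against 112. Medians, which were not weighted to groups, were lower in the 22 cells for *Tpm2* (119 against 153 CPM). For *Ctgf* and *Ankrd1* they were 0 on both sides. They were higher for *Cnn1* (18.4 against 7.05), *Cnn2* (274 against 249) and *Tpm1* (799 against 734), and for the first 4 genes named. These medians were 874 against 170 CPM for *Myl9*, 248 against 63.9 for *Acta2*, 213 against 127 for *Cyr61* and 45.6 against 22.5 for *Tagln*. The direction for *Cyr61*, *Tagln*, *Cnn1*, *Cnn2* and *Tpm1* thus depends on the measure. Only 22 cells stand behind these values.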

How the data were processed

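MEFs under C6FAE were profiled by single-cell RNA sequencing. According to the labels and methods, the authors sorted reads into cells by barcode, trimmed and aligned them (mouse transcriptome, mm9) and collapsed duplicates by UMI. The deposited values are whole-number counts of UMIs per gene and cell. The aligner is not given in the sources used here. Large counts had been rounded, since each of the 5 that reached 100000 ended in zeros to the nearest 1000.

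Cells had to show 4000 detected genes to be kept (670 of 808). The 92 ERCC spike-ins, 5.43% of the UMIs of kept cells, and 4 duplicate entries of 23201 with dates for names were left out of library sizes. Values were computed with numpy 2.4.6, scipy 1.17.1 and pandas 2.3.3 (Python 3.11.15) and plotted with matplotlib 3.10.9. Log2 ratios took a pseudocount of 1. Alternative scaling used TMM factors of edgeR 4.0.16 and size factors of DESeq2 1.42.0 under R 4.3.3, on summed counts. Thinning to 50000 UMIs left out 23 shallower cells. Poisson and Clopper-Pearson intervals at 95% cover counting error only, and a group at 0 was read as allowing up to 3 counts or 3 cells.

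The 10 samples (all group C6FAE) could not be linked to cells, so the table was 1 sample without replicates and no test was made. The log2 ratio script was tested on simulated data. The rule for named genes took all 10 genes, their paralogs and the genes of 3 pathway lists, of which 1 is not reported here. The genes and lists were chosen with earlier results of these data known. Pathway genes given by name are examples picked after their values were seen. Positions on NCBIM37 (mm9) come from GENCODE M1, count from 1 and are all of protein-coding genes. Promoters are from RefSeq on GRCm38.p6. Alternatives changed the filter on cells, the average, the scaling, the pseudocount, the depth and the range of cell numbers. Leaving out cells with skeletal muscle markers and cells under 50000 UMIs was added after seeing the data.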

Additional observations from a re-analysis of the deposited data

How the results depend on the processing

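No paired analysis was possible because cell names carry no batch and no test was made. Over 17 alternatives, the 40 log2 ratios of the 10 genes past 2-fold in 6 comparisons gave 666 recomputed values, of which 664 kept their direction and 659 stayed past 2-fold. With all cells, *Ctgf* at d8 against d6 reversed to -1.11, and 1 gene instead of 0 was lower there. The count of genes higher at d8 than at d6, which was 3, was 5 with cells of at least 6000 genes, 5 by mean log2 values, 5 by summed UMIs, 6 by medians, 5 with TMM factors, 5 with DESeq2 size factors and 5 in cells numbered above 48. The count higher in d12c cells numbered 49 to 96 than at d12, which was 0, was 1 by summed UMIs, 1 by medians and 1 without the highest cell of each group. Scaled to ERCC, 9 in place of 5 genes were lower and 0 in place of 1 higher at d12 than at d0. The cause was not tested. On that scale the median over all genes moved to -2.10 at d12 and -2.52 at d20, where 91.9% of genes were lower and 2.04% higher. The split on the ERCC scale was 11% lower and 15.8% higher at d1 against d0, 20.9% and 3.38% at d8 against d6, 35.9% and 11.9% at d20 against d12, and 43.1% and 7.98% in d12c cells numbered 49 to 96 against d12. By medians, *Ankrd1* at d1 against d0 was at -0.63, above the 2-fold line, and over all alternatives its ratio ran from -5.69 to -0.63. The group with the highest level differed for *Cnn1* in 7 of 14 settings (d8 or d4 in place of d12), and on the ERCC scale *Cyr61* and *Myl9* were highest at d0. Depth limits the d20 cells most, with a median of 195480 UMIs.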

Other observations

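Striated muscle actins came from a small number of cells. *Acta1*, the actin of skeletal muscle, had a mean of 184 CPM at d0 and 3.84 without the 8 cells that held skeletal muscle markers, where it was at 1626 CPM. *Actc1*, the cardiac actin, was at 224 CPM at d0, 4.66 without these cells and 1976 in them. For each gene 1 cell made up most of this, at 12983 CPM for *Acta1* and 15613 for *Actc1*. Without the highest cell the d0 means were 3.80 and 6.97 CPM. Among the d12c cells, 2 of 51 held such markers, and both were numbered 1 to 24. Over these 2 cells the means were 26368 CPM for *Acta1*, 4157 for *Actc1*, 2531 for *Tpm2* and 624 for *Acta2*. In the other 49 they were 11.6, 1.05, 67.3 and 11.4 CPM. The first 3 means came almost wholly from 1 cell per gene, at 52707, 8311 and 4949 CPM.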
